A study of Rattus norvegicus with 6 samples.

Results

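Expression was compared between diabetic and normal rat diaphragm for 9 genes of the muscle lipid droplet, out of 10411 genes named on the array. G0s2, Cidea and Pnpla7 had been picked for their strong differences between these same arrays, so their values are given as a description with no test. Pnpla2, Lipe, Plin2, Angptl4, Dgat1 and Dgat2 were chosen for what they do, though with earlier results of these data known. Plin2 had 2 probe sets and each other gene had 1, and all 10 passed the filter on low signals. The diaphragms came from 6 male Wistar rats, and each rat had its own array. At 8 weeks of age, 3 rats had received 60 mg/kg of streptozotocin, a toxin of the insulin-producing beta cell, in citrate buffer into the peritoneum, and 3 had received the buffer only. The left costal hemidiaphragm was taken 4 weeks later after a night without food, and no rat was given insulin. Both groups were therefore fasted, and effects of streptozotocin itself cannot be told apart from those of diabetes.

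A lipid droplet is a core of triglyceride and sterol ester under a coat of proteins, and in muscle it supplies fatty acids to mitochondria. Pnpla2, also called adipose triglyceride lipase, removes the first fatty acid from triglyceride, Lipe removes the next, and G0s2 binds and inhibits Pnpla2. The acyltransferases Dgat1 and Dgat2 make the triglyceride, and outside the cell Angptl4 inhibits lipoprotein lipase, which frees fatty acids from circulating lipoproteins.

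Each value is a probe set signal, an intensity on a linear scale, and signals of different genes do not rank their levels. Of all 7080 named genes tested, 3.46% passed higher and 3.55% passed lower in diabetic muscle, at an adjusted p under 0.05 in limma, a linear model fitted to the probe sets above the filter on low signals. Over the 9519 probe sets tested the shares were 3.3% and 3.48%. Normal replicate 3 stood apart among the genes that passed, and these genes were called with this array included. It held the lowest normal signal for 66.9% of the 245 genes that passed higher, against 36.0% of all tested genes, and the highest normal signal for 57.4% of the 251 that passed lower, against 35.9%. Values without this array therefore stand beside the results, and the diabetic arrays were not compared in this way. In whole muscle, fewer cells of a type and less RNA per cell cannot be told apart.

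Pnpla2, the lipase of the first step, rose in diabetic diaphragm. The normal signals were 2977, 2555 and 1011, and the diabetic signals were 6185, 6122 and 6308. Normal replicate 3 was well below the other normal arrays, the diabetic arrays lay close together, and the groups did not overlap. The mean was 2181 ± 1035 on normal arrays and 6205 ± 94.8 on diabetic arrays (SD, n = 3 each), which is 2.85-fold higher. On the log2 scale the change was 1.65 with a standard error of 0.33 and a 95% interval from 0.92 to 2.38 (limma, adjusted p = 0.016). Without normal replicate 3 the ratio was 2.24-fold and the log2 change 1.17 (limma, adjusted p = 0.0037). Without diabetic replicate 1, 2 or 3 the log2 change was 1.65, 1.66 or 1.64 and missed the threshold, with a limma adjusted p of 0.0518, 0.0505 or 0.0525.

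G0s2, the inhibitor of that lipase, had the opposite direction. Its normal signals were 1023, 1715 and 2166, and its diabetic signals were 164, 144 and 112. Every diabetic array was far below every normal array, and normal replicate 3, the lowest array for Pnpla2, was the highest for G0s2. The mean was 1635 ± 576 on normal arrays and 140.0 ± 26.1 on diabetic arrays (SD, n = 3 each), which is 11.7-fold lower, and 9.78-fold lower without normal replicate 3. Leaving out any array in turn gave ratios from 9.78 to 13.9.

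Lipe, hormone-sensitive lipase, works after Pnpla2. It was measured at 549, 336 and 223 on the normal arrays and at 559, 705 and 358 on the diabetic arrays. The groups overlapped, with diabetic replicate 3 between normal replicates 1 and 2. Mean signals were 369 ± 166 and 540 ± 174 (SD, n = 3 each), and the log2 difference of 0.59 had an interval from -0.14 to 1.32 (limma, adjusted p = 0.30). Without normal replicate 3 it was 0.28 (limma, adjusted p = 0.67). The log2 change of Lipe minus that of Pnpla2 was -1.06, with a 95% interval from -2.09 to -0.03. Its 2-sided exact permutation test gave p = 0.1, the smallest that 3 arrays against 3 can give, and p = 0.3 after Benjamini-Hochberg adjustment over the 3 gene pairs compared. Without normal replicate 3 this difference was -0.89.

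Pnpla7 belongs to the same patatin-like family and acts mainly on lysophospholipids. The normal signals of 1197, 1158 and 231 faced diabetic signals of 2799, 4211 and 2447. Normal replicate 3 was again far below the other normal arrays, and all diabetic arrays were above all normal arrays. The mean was 862 ± 547 on normal arrays and 3152 ± 934 on diabetic arrays (SD, n = 3 each). The ratio of 3.66-fold higher became 2.68-fold without normal replicate 3, the lowest value with any array left out, and the highest was 4.54-fold.

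**Figure D1:**
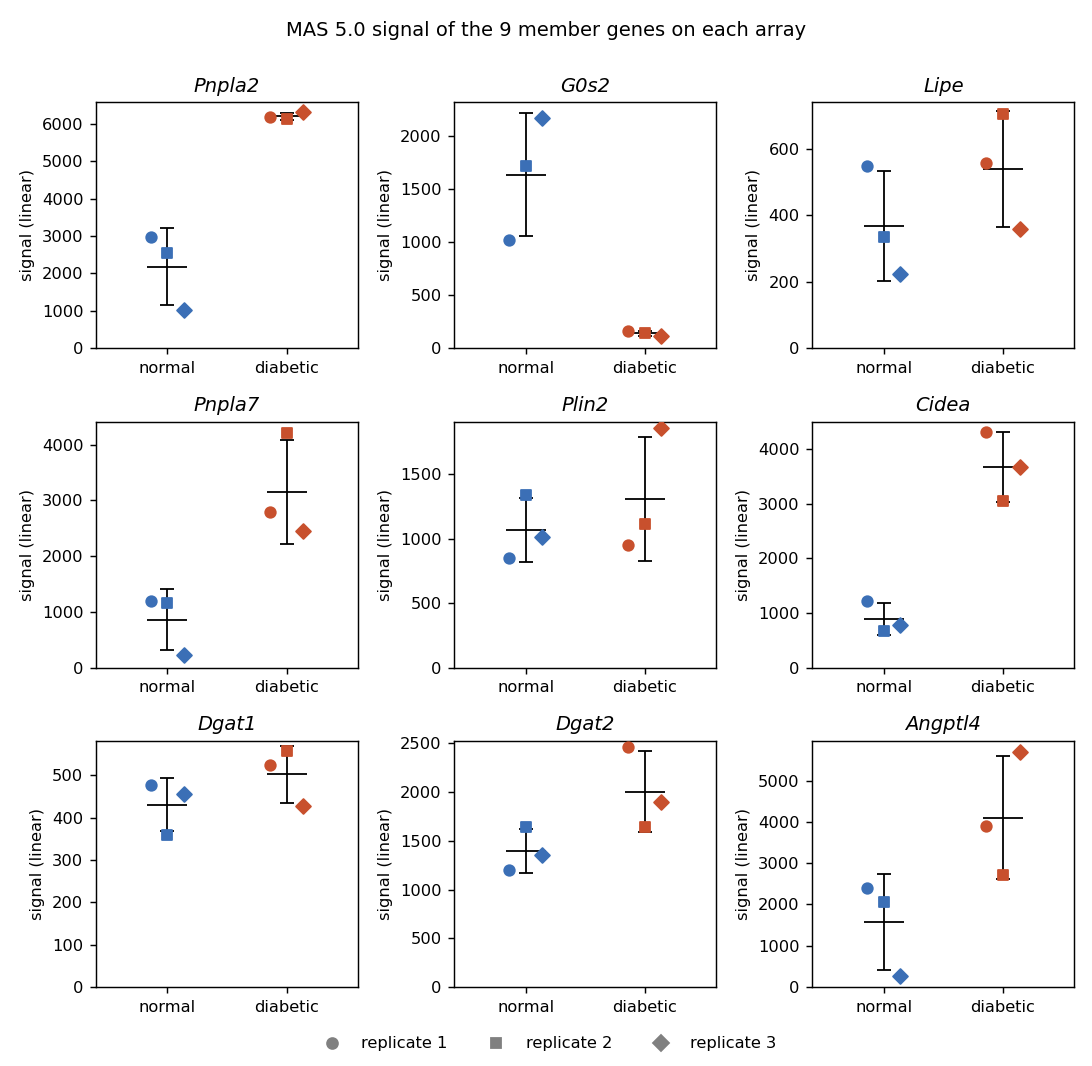
Signal (linear intensity) of each of the 9 genes on the 3 normal (blue) and 3 diabetic (orange) arrays, with the brighter Plin2 probe set shown. Marker shapes give the replicate number, and the bars are the mean and SD of 3 arrays. Pnpla2, G0s2, Pnpla7 and Cidea have wide gaps between the groups, and normal replicate 3 is far below the other normal arrays for Pnpla2, Pnpla7 and Angptl4.

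Among the droplet coat proteins, Cidea and Plin2 differed in pattern. Cidea promotes the fusion and growth of droplets and is known from brown fat. Its normal signals were 1221, 678 and 775, and its diabetic signals were 4318, 3045 and 3667. All diabetic arrays were above all normal arrays, and normal replicate 3 lay between the other normal arrays. Means of 891 ± 290 on normal arrays and 3677 ± 636 on diabetic arrays (SD, n = 3 each) gave a ratio of 4.13-fold higher, 3.87-fold without normal replicate 3 and from 3.68 to 5.06 with any array left out.

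Plin2, a perilipin that coats droplets in most tissues, did not pass on either probe set. The brighter one read 849, 1336 and 1015 on normal arrays and 950, 1114 and 1855 on diabetic arrays. Its groups overlapped, and only diabetic replicate 3 was above all normal arrays. The log2 difference was 0.26 with an interval from -0.31 to 0.82 (limma, adjusted p = 0.59), and it was -0.03 without diabetic replicate 3 (limma, adjusted p = 0.96). The dimmer probe set read 452, 473 and 438 on normal and 552, 617 and 533 on diabetic arrays. Here the groups did not overlap and the arrays of each group lay close together, with a log2 difference of 0.32, an interval from -0.02 to 0.66 and a limma adjusted p of 0.24. The probe sets thus differed in whether the groups separated, and neither passed.

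Dgat1 and Dgat2 catalyse the last step of triglyceride synthesis. Dgat1 signals were 478, 359 and 455 in normal and 524, 557 and 427 in diabetic muscle. The groups overlapped, and the log2 difference of 0.22 had an interval from -0.18 to 0.63 (limma, adjusted p = 0.50). Dgat2 signals were 1196, 1644 and 1353 in normal and 2459, 1646 and 1903 in diabetic muscle. The groups were separated only narrowly, since the lowest diabetic array nearly met the highest normal one. The mean of Dgat2 was 1397 ± 227 and 2003 ± 416 (SD, n = 3 each), 1.43-fold higher, and the log2 difference of 0.51 had an interval from 0.09 to 0.93 (limma, adjusted p = 0.14). The log2 change of Dgat2 minus that of Dgat1 was 0.29, with a 95% interval from -0.64 to 1.22 (2-sided exact permutation test, p = 0.5, adjusted p = 0.5 over the 3 pairs). The interval leaves room for a difference in either direction.

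Angptl4, the secreted inhibitor of lipoprotein lipase, had the largest log2 difference of the 6 genes chosen by function with all arrays, yet it missed the threshold. Without normal replicate 3, Pnpla2 had the larger one. Its signals were 2400, 2063 and 254 in normal and 3902, 2724 and 5688 in diabetic muscle. Normal replicate 3 was far below every other array, and the groups did not overlap. The mean was 1572 ± 1154 on normal arrays and 4105 ± 1492 on diabetic arrays (SD, n = 3 each), 2.61-fold higher. The log2 difference of 1.86 had an interval from 0.33 to 3.39 (limma, adjusted p = 0.13). Without normal replicate 3 it was 0.82 (limma, adjusted p = 0.12), and the ratio was 1.84-fold. The log2 change of Angptl4 minus that of Plin2 was 1.61, with an interval from -1.37 to 4.59 (2-sided exact permutation test, p = 0.2, adjusted p = 0.3 over the 3 pairs), and it was 0.59 without normal replicate 3.

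**Figure D2:**
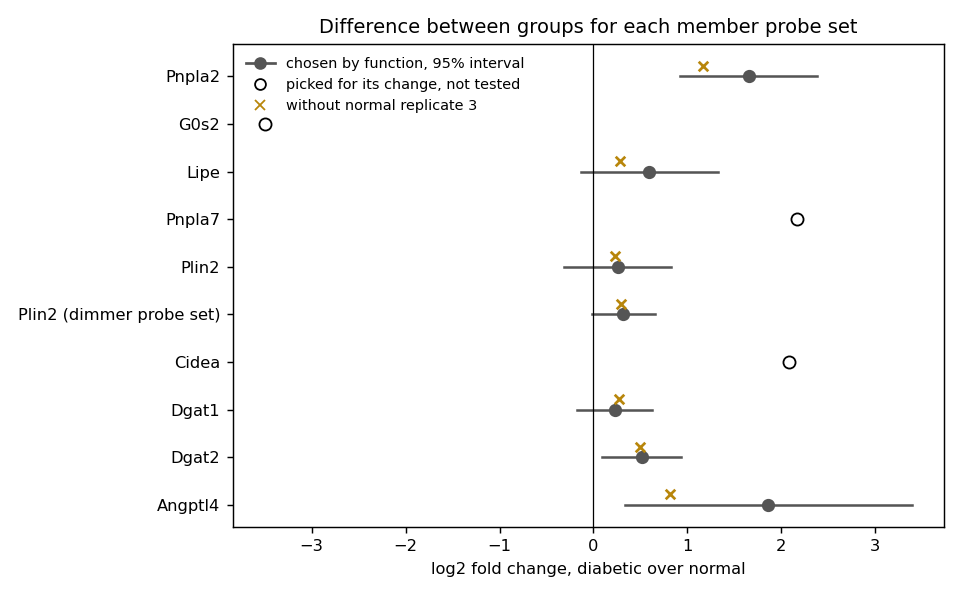
Log2 fold change, diabetic over normal, for each of the 10 probe sets. Filled points are genes chosen by function with their 95% interval, open points are G0s2, Pnpla7 and Cidea with no test, and crosses are the values of the tested genes without normal replicate 3. The intervals of Pnpla2, Dgat2 and Angptl4 lie above 0, and only Pnpla2 passed after adjustment over all probe sets.

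Of the 6 genes chosen by function, 1 passed higher (3.46% of all named genes tested did) and 0 passed lower (3.55%) in limma. All diabetic arrays were above all normal arrays for 3 of the 6, Pnpla2, Angptl4 and Dgat2, as for 15.9% of all tested genes. The reverse was seen for 0 of the 6 and for 14.9% of all. Their median log2 difference was 0.55, against 0.01 over all named genes tested, and 0.39 without normal replicate 3. Since the 6 were chosen with earlier results of these data known, their comparison with all genes is a description. At an unadjusted p under 0.05, 3 of the 6 passed higher and 0 lower, where 12.8% of all named genes tested passed higher and 11.9% lower. Normal replicate 3 was the lowest normal array for 3 of them, Pnpla2, Lipe and Angptl4.

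The promoters of 4 genes are printed to show the sequence just before the start of the lipase that passed, of its inhibitor with the opposite direction, and of Pnpla7 and Angptl4, for which normal replicate 3 was lowest. Each holds the 250 bases before the start of the gene, from RefSeq on build GRCr8, which is not the build of the array. G0s2 lies at chr13:107335949-107336198 on the minus strand, Pnpla2 at chr1:205982029-205982278 on the plus strand, Pnpla7 at chr3:28180501-28180750 on the plus strand and Angptl4 at chr7:15258682-15258931 on the minus strand. Capitals mark GGGCGG, a GC box, read on either strand, or CACGTG, an E-box.
Pnpla2: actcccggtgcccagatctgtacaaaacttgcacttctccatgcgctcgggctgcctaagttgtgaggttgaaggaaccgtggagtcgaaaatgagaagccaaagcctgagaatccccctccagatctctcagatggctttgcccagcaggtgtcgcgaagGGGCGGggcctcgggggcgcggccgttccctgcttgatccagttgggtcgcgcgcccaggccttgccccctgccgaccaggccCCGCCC
G0s2: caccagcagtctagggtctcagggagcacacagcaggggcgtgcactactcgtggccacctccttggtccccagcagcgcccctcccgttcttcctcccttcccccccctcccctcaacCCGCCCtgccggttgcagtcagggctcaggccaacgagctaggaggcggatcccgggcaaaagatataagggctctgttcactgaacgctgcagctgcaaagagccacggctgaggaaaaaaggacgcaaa
Pnpla7: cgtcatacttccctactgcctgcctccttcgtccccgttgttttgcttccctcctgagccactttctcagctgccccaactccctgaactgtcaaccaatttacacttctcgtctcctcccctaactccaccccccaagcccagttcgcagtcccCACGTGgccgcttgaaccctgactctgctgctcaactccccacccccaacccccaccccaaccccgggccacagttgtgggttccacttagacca
Angptl4: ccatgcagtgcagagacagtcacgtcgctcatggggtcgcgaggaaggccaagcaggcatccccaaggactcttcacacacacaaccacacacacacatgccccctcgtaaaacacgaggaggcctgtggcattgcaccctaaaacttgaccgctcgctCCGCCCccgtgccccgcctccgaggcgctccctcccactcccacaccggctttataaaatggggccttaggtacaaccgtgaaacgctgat

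RefSeq's table gave 7 such windows for 6 of the 9 genes, and Lipe, Dgat1 and Dgat2 were not listed there. GGGCGG or CCGCCC was in 5 of the 7 windows, those of Angptl4, Cidea, G0s2, Plin2 and Pnpla2, and in 30.5% of all 33469 windows. Each of these 5 windows had a higher percentage of G or C than the median of all windows, 51.2%. Of the windows without the motif, that of Pnpla7 had 59.6% G or C and the other one of Plin2 had 47.2%. The windows were not matched for G or C, so enrichment of the motif was not tested. In Pnpla2 the motif began at positions -89 and -6 from the start, and in G0s2 at -131. The E-box CACGTG, the same on both strands, was in 2 of the 7, those of Plin2 and Pnpla7, and in 5.59% of all. AGGTCA, the half-site that nuclear receptors such as the PPARs bind, was in 0 of the 7 and in 14.1% of all on either strand. TGTTTAC, a site for forkhead factors, was in 0 of the 7 and in 3.21% of all. A match or its lack in so short a stretch describes the letters and not the binding of a factor. Pnpla2 and G0s2, which differed in opposite directions, both held the GC box and neither held the E-box.

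The rest of the droplet coat and its making were followed in a list of 29 genes, of which 20 were tested. Of these, 2 passed higher, 1 passed lower and 17 did not pass, with a median log2 difference of 0.00. Over all named genes tested, 3.46% passed higher and 3.55% lower, and the median was 0.01. Hilpda, a droplet protein that also inhibits Pnpla2, rose 1.82-fold, with signals of 221, 244 and 144 in normal and 407, 315 and 390 in diabetic muscle (limma, adjusted p = 0.044). Ubxn4, a protein of the endoplasmic reticulum, rose from 1722 ± 260 to 2937 ± 491 (SD, n = 3 each; limma, adjusted p = 0.031). Fitm1, a muscle protein of the endoplasmic reticulum that partitions triglyceride into droplets, fell from 3093 ± 390 to 1942 ± 150 (SD, n = 3 each; limma, adjusted p = 0.028). None of the 3 passed without normal replicate 3, where their limma adjusted p was 0.11 for Hilpda, 0.088 for Ubxn4 and 0.086 for Fitm1. With another array left out, Hilpda and Fitm1 passed only without normal replicate 2, and Ubxn4 only without normal replicate 2 or diabetic replicate 1. Fitm2, a relative of Fitm1 chosen after its values were seen, was the 1 gene of the list that passed there, at -0.78 (limma, adjusted p = 0.0496), and with all arrays it was at -0.54 (limma, adjusted p = 0.18).

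Plin4, the perilipin with a large signal in muscle, had 4840 ± 1756 in normal and 7602 ± 855 in diabetic tissue (SD, n = 3 each; log2 difference 0.71, limma, adjusted p = 0.099). The groups of Plin4 did not overlap. The segregase Vcp was at 0.51 (limma, adjusted p = 0.073), the caveola protein Cav1 at -0.43 (limma, adjusted p = 0.20) and the membrane contact protein Vapa at -0.36 (limma, adjusted p = 0.30). The small GTPases Rab7a at 0.18 and Rab18 at 0.02 did not pass either. The dimmer probe sets differed in size, with Cav1 at -0.05 (limma, adjusted p = 0.94) and Rab7a at 0.46 (limma, adjusted p = 0.18).

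Of 23 tested genes of a list of 39 on triglyceride breakdown and its control, 1 passed higher, 1 passed lower and 21 did not pass, with a median of 0.03. Of all named genes tested, 3.46% passed higher and 3.55% lower. Gpihbp1, which holds lipoprotein lipase on the capillary wall, had signals of 329, 256 and 413 in normal and 588, 852 and 801 in diabetic muscle. It rose 2.25-fold, with a log2 change of 1.18 and a standard error of 0.22 (limma, adjusted p = 0.012). The carboxylesterase Ces1d, known in liver and fat as a triglyceride hydrolase, had signals of 1383, 1355 and 1058 in normal and 713, 504 and 358 in diabetic muscle. It fell 2.41-fold, by 1.32 on the log2 scale (limma, adjusted p = 0.011). Both passed with any 1 array left out, and the highest limma adjusted p was 0.048 for Gpihbp1 and 0.044 for Ces1d. The study had selected Ces1d on these same arrays, so its direction is not independent evidence.

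Lipoprotein lipase itself, Lpl, the enzyme that Angptl4 inhibits and Gpihbp1 anchors, was at 13775 ± 2053 in normal and 15278 ± 1986 in diabetic muscle (SD, n = 3 each; log2 difference 0.15, limma, adjusted p = 0.61). The groups of Lpl overlapped. The glycerol channel Aqp7 was at 1173 ± 512 and 1825 ± 282 (SD, n = 3 each; log2 difference 0.75, limma, adjusted p = 0.18). The protein kinase A subunits Prkar1a at 0.13, Prkar2a at -0.36 and Prkacb at -0.33, and the G protein subunit Gnas at -0.25, did not pass. These proteins carry the hormone signal that activates Lipe.

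Of 15 tested genes of a list of 26 on triglyceride and sterol ester synthesis, 1 passed higher, 1 passed lower and 13 did not pass, with a median of 0.01. Of all named genes tested, 3.46% passed higher and 3.55% lower. Gpam, the mitochondrial acyltransferase of the first step, had signals of 219, 126 and 131 in normal and 241, 448 and 318 in diabetic muscle. It rose 2.11-fold (limma, adjusted p = 0.049), and without normal replicate 3 its limma adjusted p was 0.12. It also missed the threshold without normal replicate 2 or diabetic replicates 2 or 3. Gpd1, which makes the glycerol phosphate that becomes the triglyceride backbone, had signals of 4063, 3410 and 5833 in normal and 1520, 979 and 1107 in diabetic muscle. It fell 3.69-fold, by 1.87 on the log2 scale with a standard error of 0.23 (limma, adjusted p = 0.0019), and it passed with any 1 array left out. Without normal replicate 3 the list had 0 genes higher (limma) and 2 lower, Gpd1 and Acsl3, an acyl-CoA synthetase of growing droplets chosen after its values were seen.

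The phosphatidate phosphatase Lpin1 was at 1370 ± 414 in normal and 2991 ± 1393 in diabetic muscle (SD, n = 3 each; log2 difference 1.06, limma, adjusted p = 0.095). Its groups overlapped through diabetic replicate 2. The synthetases Acsl1 at 0.10 and Acsl4 at 0.81, the acyltransferase Gpat4 at 0.01 and the lipid phosphatases Plpp1 at 0.42 and Plpp3 at -0.57 did not pass (limma).

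Angptl4, Plin2 and Cidea are among the known targets of the PPARs, nuclear receptors that sense fatty acids. G0s2, which was 11.7-fold lower in diabetic muscle, and other genes of the 9 may be targets too. A list of other PPAR responsive genes was therefore set beside the 9 genes. The list also holds PPARs themselves and their partner proteins, and its counts and median include those that were tested. Of 20 tested genes of a list of 27, 2 passed higher (3.46% of all named genes tested did), 0 passed lower (3.55%) and 18 did not pass in limma. At an unadjusted p under 0.05 there were 9 higher and 0 lower (12.8% and 11.9% of all named genes tested). The median log2 difference of the 20 was 0.42, against 0.01 over all named genes tested, and 0.28 without normal replicate 3. Normal replicate 3 was the lowest normal array for 17 of the 20, as it was for Pnpla2, Lipe, Pnpla7 and Angptl4. The summed signal of the list was 83711 on that array, 109865 and 128679 on the other normal arrays, and 129744 to 150062 on the diabetic arrays. The part of this array in the differences of Angptl4 and Pnpla7 was not tested beyond the values without it given above.

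The 2 that passed had both been selected by the study on these arrays. The study's real-time PCR on tissue of the same rats also had both higher in diabetic muscle. Its ratio for Acot1, there called Cte1, was smaller than on the arrays. The study also selected Acot2, there called Mte1 and named here after its values were seen, and its PCR had it higher too. On the probe set used here Acot2 was 1.79-fold higher with overlapping groups (limma, adjusted p = 0.42). That was a smaller rise than the study gave. Decr1, an enzyme that oxidises unsaturated fatty acids, rose from 4042 ± 1327 to 9023 ± 1214 (SD, n = 3 each; limma, adjusted p = 0.016), and without diabetic replicate 3 its limma adjusted p was 0.056. Acot1, a cytosolic acyl-CoA thioesterase, had signals of 15.6, 47.5 and 3.1 in normal, all below the filter level of 105.8, and 404, 686 and 730 in diabetic muscle (limma, adjusted p = 0.0041), so the size of its rise is imprecise. The fatty acid carrier Cd36 was at 0.69 (limma, adjusted p = 0.14), Ech1 at 0.51 (limma, adjusted p = 0.10), Acaa2 at 0.45 (limma, adjusted p = 0.26) and Acadl at 0.34 (limma, adjusted p = 0.20). Fabp3 at 0.14 and Acadm did not pass, and both had overlapping groups.

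**Figure D3:**
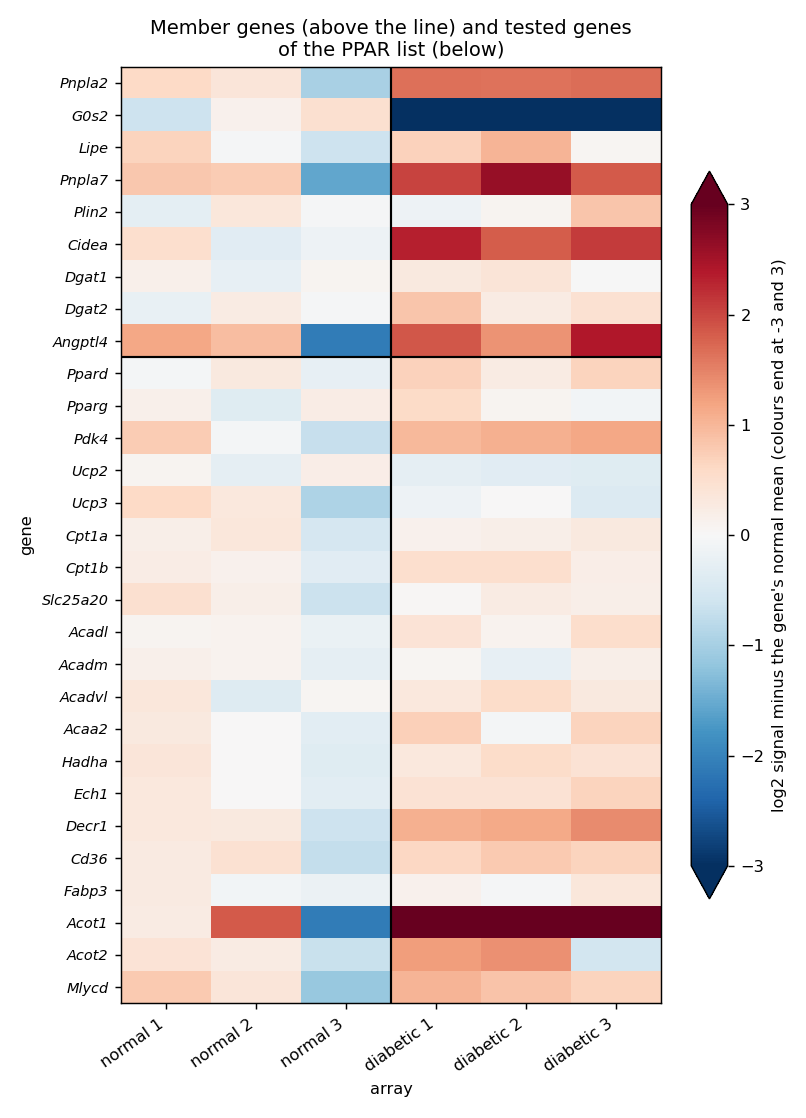
Log2 signal of each gene minus its own normal mean, as colour from blue (lower) to red (higher), by array. The 9 genes are above the line, and the 20 tested genes of the PPAR list, which includes receptors, are below it. The column of normal replicate 3 is blue in Pnpla2, Pnpla7 and Angptl4 and in most genes of the PPAR list. The G0s2 row is blue on all 3 diabetic arrays.

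The genes with the nearest pattern were found from the root mean square difference over the 6 arrays of log2 signals, each centred on its normal mean. For G0s2 these were Mss51 at 0.34, Ky at 0.36 and Neu2 at 0.39. Mss51 had signals of 1677, 2225 and 3196 in normal and 384, 272 and 189 in diabetic muscle, with normal replicate 3 the highest and diabetic replicate 3 the lowest, as for G0s2. For Cidea they were Srxn1 at 0.31, the translation repressor Eif4ebp1 at 0.31 and the transcription factor Cebpd at 0.35. For Pnpla7 they were Coa7 at 0.29, Rnf39 at 0.38 and Pik3c2g at 0.40. The normal means of Coa7 and Rnf39, 51.0 and 64.3, were below the filter level of 105.8, so their log2 values there are imprecise. Pik3c2g had signals of 952, 947 and 180 in normal, and its lowest normal array was the same as that of Pnpla7. With 6 arrays in 2 groups, likeness of this kind mostly repeats the difference between the groups.

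Fat cells in the muscle sample are the other source of such genes that was followed. Of 5 defining fat cell genes, 4 were named on the array and Adipoq was not among them. Lep read 5.4 to 10.5 and Plin1 25.6 to 81.5 over the 6 arrays, both below the filter level, while Fabp4 read 4311 to 6242 and Cfd 1015 to 1900. None was at 0. The sum of the 4 was 5840 to 7655 in normal and 6389 to 8175 in diabetic muscle, and the groups overlapped. Most of this sum was Fabp4 on every array, while Lep and Plin1 added little, so its overlap says little about fat cells. Of the 12 tested genes of a list of 20 fat cell markers, 0 passed higher in limma and 3 passed lower, Rbp4 at -3.42 (limma, adjusted p = 0.0092), Scd at -2.59 (limma, adjusted p = 0.0036) and Fasn at -1.91 (limma, adjusted p = 0.046). Scd and Fasn make fatty acids in many tissues, and the study had selected Rbp4 on these arrays. Fasn had a limma adjusted p of 0.086 without normal replicate 3 and passed only when normal replicate 1 was left out. The dimmer probe set of Fasn was at -1.09 and did not pass with all arrays (limma, adjusted p = 0.11). Of all named genes tested, 3.46% passed higher and 3.55% lower in limma. At an unadjusted p under 0.05, 1 gene of the list was higher and 4 were lower, against 12.8% and 11.9% of all named genes tested. The summed signal of that list was 38533 to 42710 in normal and 38384 to 44138 in diabetic muscle. Between 70.8% and 77.3% of it came from Lpl and Car3, the latter named after its values were seen, and muscle expresses both, so the overlap of the sums says little about fat cells. The brown fat gene Ucp1, which marks the tissue Cidea is known from, read 7.4 to 59.5, and of 2 tested genes of the brown fat list 0 passed in limma (1 higher at an unadjusted p under 0.05, against 12.8% of all named genes tested). Between 99.3% and 99.8% of the brown fat sum came from Cox8b and Cpt1b, also named after their values were seen and also expressed by muscle.

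Marker lists of other cell types gave mixed counts, where 3.46% of all named genes tested passed higher and 3.55% lower in limma. Of 19 tested skeletal muscle markers, 3 passed lower. The fast myosin Myh4 fell by 1.82 on the log2 scale, Myoz1 and Mb passed lower as well, but each missed the threshold in 5 of the 6 fits with an array left out, and the summed signal was 322272 to 377022 in normal and 270134 to 365330 in diabetic muscle. Of 10 tested fibroblast markers, 3 passed lower, Lum, Col6a3 and Mfap5 (the last not without normal replicate 2 or diabetic replicates 1 or 3). The summed signal of this list was 26756 to 29471 in normal and 21512 to 23209 in diabetic muscle, without overlap. Dcn, named after its values were seen, gave a large part of this sum and differed little, at -0.11 (limma, adjusted p = 0.68). Of 10 tested endothelial markers, Kdr passed higher and Tie1 passed lower, and neither passed with any 1 array left out. Of 8 tested macrophage, 6 tested mesothelial and 1 tested liver marker, 0 passed in either direction in limma, also at an unadjusted p under 0.05. At an unadjusted p under 0.05 in limma, 0 muscle markers were higher and 5 lower, and likewise 0 and 5 fibroblast markers. There was 1 endothelial marker on each side, where 12.8% of all named genes tested passed higher and 11.9% lower. The part of these marker shifts in the values of the lipid droplet genes was not tested.

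**Figure D4:**
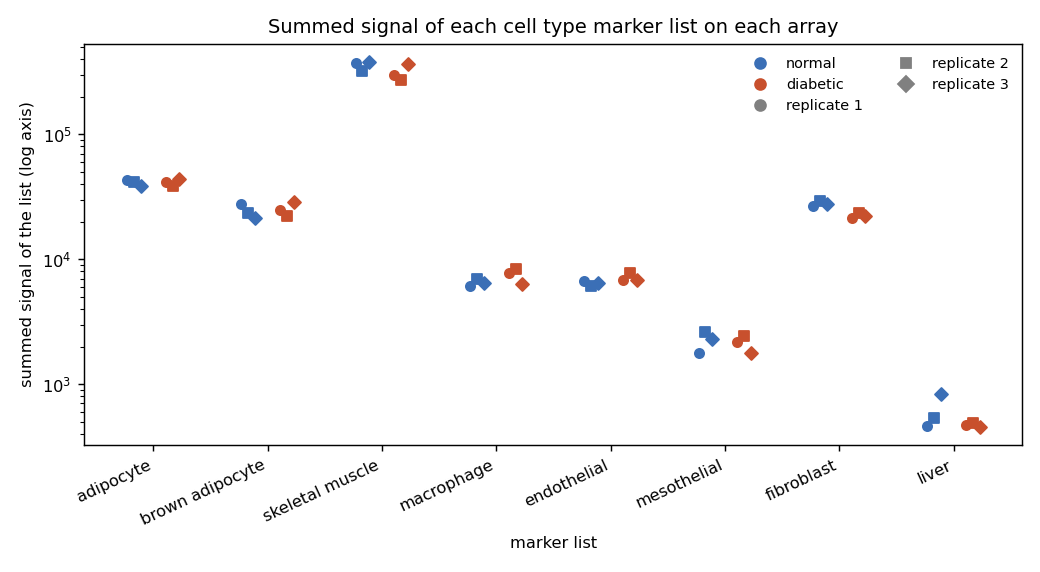
Summed signal of each cell type marker list (log axis) on the 3 normal (blue) and 3 diabetic (orange) arrays, with marker shapes for the replicate number. The fat cell and brown fat sums, which come mostly from genes that muscle also expresses, overlap between the groups, and the fibroblast list is lower on all 3 diabetic arrays.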

How the data were processed

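Total RNA of the left costal hemidiaphragm was hybridized to Affymetrix RAE 230A arrays, 1 per rat, and the authors summarized each probe set with MAS5 as a signal, the deposited intensity on a linear scale. For the MAS5 settings the sources used here give no values. The dose, age and time come from the study's methods and the groups from the sample titles. A floor of 1 was applied, which touched 136 values, before taking log2. The 57 control probe sets and those at or below the 40th percentile of mean signal (105.8) were left out, which kept 9519 of 15923. They were fitted with limma 3.58.1 under R 4.3.3 (trend in the variance prior), with Benjamini-Hochberg adjustment over all of them and 4 residual degrees of freedom. The study's own test, BAM, was not run. The number of arrays limits the precision, and array medians were 167.1 to 180.5.

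Platform annotation gave 12783 probe sets 1 gene, 312 several and 2771 none. A gene stands by its brightest probe set. A fold is the ratio of the 2 group means. The text names every probe set of the 9 genes, in each pathway list the genes that passed and up to 6 of the brightest that did not, in marker lists up to 4 that passed, and 3 nearest patterns per picked gene. Fitm2, Acsl3, Acot2, Ucp1, Car3, Cox8b, Cpt1b and Dcn fall outside this rule. The genes and lists were chosen with earlier results of these data known.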

Additional observations from a re-analysis of the deposited data

How the results depend on the processing

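The direction and the side of the threshold of Pnpla2 held under 13 of 16 alternatives, with a limma adjusted p of 0.0037 to 0.053 over all 16, and failed without each diabetic array. Lipe, Plin2, Angptl4, Dgat1 and Dgat2 passed under none. With 1 array left out Plin2 ran from -0.027, without diabetic replicate 3, to 0.46. With 1 array left out the ratio ran from 9.78 to 13.9 for G0s2, 3.68 to 5.06 for Cidea and 2.68 to 4.54 for Pnpla7. The other alternatives stayed within these ranges.

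Without 1 array at a time, the probe sets that passed were 133 to 226 higher and 179 to 235 lower, against 314 and 331 with all arrays. The counts of genes that passed were 0 to 1 for the genes chosen by function, 0 to 3 for the droplet list, 2 for the breakdown list, 1 to 2 for the synthesis list, 1 to 3 for the PPAR list and 2 to 3 for the fat cell list. The droplet list had 3 when normal replicate 2 was left out and 0 or 1 without any other array. Without diabetic replicate 3 it had 0, and the synthesis and PPAR lists 1 each. Differences between pairs ran from -1.29 to -0.78 for Lipe against Pnpla2, 0.10 to 0.54 for Dgat2 against Dgat1 and 0.59 to 2.34 for Angptl4 against Plin2.

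No filter on low signals left 200 probe sets higher, 1 droplet gene and 1 synthesis gene. A filter at the 60th percentile left 1 synthesis gene and 1 fat cell gene. Without a trend in the variance prior the droplet list had 0 and the synthesis list 1, and quantile normalization gave the PPAR list 4. At an adjusted p under 0.1, 562 probe sets were higher and 585 lower, with 6 droplet and 4 synthesis genes. At an unadjusted p under 0.05, 1163 were higher and 1112 lower, with 3 genes chosen by function, 11 droplet, 5 breakdown, 6 synthesis, 9 PPAR and 5 fat cell genes. The causes were not tested.

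With the replicate number as a block, 162 probe sets passed higher and 170 lower, with 0 droplet, 1 synthesis and 1 PPAR gene, and Pnpla2 still passed at 1.65 (limma, adjusted p = 0.034). Arrays of the same number deviated together with correlations of 0.10, -0.20 and -0.07, so the numbers were read as names and not as pairs.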

Other observations

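The nearest patterns of the genes chosen by function were also computed, outside the rule for named genes and after their values were seen. For Pnpla2 they were Mtarc1 at a root mean square difference of 0.11 on the log2 scale over the 6 arrays, Sesn1 at 0.20 and Gabarapl1, a protein of the autophagosome, at 0.21. Gabarapl1 read 2095, 1400 and 853 in normal and 3970, 3879 and 3815 in diabetic muscle. As for Pnpla2, its diabetic arrays lay close together and normal replicate 3 was the lowest array. For Lipe the nearest was the fatty acid transporter Slc27a1 at 0.16, with signals of 2131, 1503 and 765 in normal and 2450, 2596 and 1610 in diabetic muscle, where the groups overlapped. For Angptl4 it was Pik3c2g at 0.36, which was also among the 3 nearest to Pnpla7. Pnpla2, Lipe and Angptl4 share the low value of normal replicate 3, so these likenesses are a description.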
